A study of Mus musculus with 4 samples.

Results

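Regulatory T cells were picked out by their transcripts from single-cell libraries of the lungs of mice with small cell lung cancer (SCLC). A cell counted as one if it held at least 2 unique molecular identifiers (UMIs, 1 per captured RNA molecule) of the CD3 genes Cd3d, Cd3e and Cd3g together, none of Cd8a or Cd8b1, at most 1 of the B cell gene Cd79a, and either at least 1 UMI of Foxp3 or at least 1 of both Ctla4 and Ikzf2. Cells were barcodes with 500 or more UMIs, 300 or more genes and no more than 10% of UMIs from mitochondrial genes. The rule found 234 regulatory T cells among 14411 cells: 27 of 3481 in control, 22 of 2736 with anti-PD-1, 55 of 4152 with YKL-5-124 and 130 of 4042 in the combination. The other CD8-negative T cells, those that passed the CD3, CD8 and Cd79a limits but not the last step, numbered 502, 314, 415 and 587 in that order, and CD8-positive T cells 344, 274, 291 and 448.

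The tumours grew from cells placed in the lung itself. Control mice received vehicle and isotype IgG, the anti-PD-1 group 200 µg of antibody clone 29F.1A12 per mouse on 3 days of each week, the YKL-5-124 group 10 mg/kg of that CDK7 inhibitor on each weekday, and the combination group both agents. All groups carried the tumour, and the sources used here give no strain, no age and no number of animals behind a library. Perfused lungs were dissociated in full and sorted for live cells with DAPI, so the cells come from tumour, lung tissue and what blood stayed behind. Each group is 1 library. No treatment could therefore be tested, and all intervals in parentheses are exact 95% intervals that cover counting error only. Values given for the 4 libraries in a row follow the order control, anti-PD-1, YKL-5-124, combination.

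Regulatory T cells are the CD4 T cells that restrain other immune cells. Foxp3 is the transcription factor that sets their identity, and they carry the inhibitory receptor CTLA-4, the factor Helios (Ikzf2), the high-affinity IL-2 receptor chain Il2ra and co-stimulatory receptors of the TNF receptor family such as Tnfrsf4 (OX40). In lung and other tissues a part of them expresses Il1rl1, the receptor for the alarmin IL-33, and Areg, a growth factor of epithelial repair. PD-1, the target of the antibody, is an inhibitory receptor found on activated T cells including regulatory ones, and CDK7 is a kinase that activates other cyclin-dependent kinases and acts in the start of transcription.

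The libraries held 17329001 to 22950622 UMIs. Regulatory T cells held 95180, 97380, 194343 and 706150 UMIs in total, so the combination outweighs the others in any pooled value. Their median depth was 2543, 3381, 2844 and 3077.5 UMIs per cell against 1827, 1942, 1921 and 2109 in the other CD8-negative T cells. A rule that asks for a UMI of a rare transcript is met more easily by a deeper cell. Between 469 and 537 cell barcodes were kept in both of any 2 libraries, where 12.9 to 22.8 would be shared if barcodes were drawn independently, and 0, 0, 1 and 6 regulatory T cells carried such a barcode. Without those cells the UMIs of regulatory T cells were 191330 with YKL-5-124 and 535545 in the combination, so the 6 cells weigh heavily in its pooled values. Of the 234 cells, 38 also held at least 10 UMIs of the marker genes of another cell class, counted after the data had been seen and called mixed cells here. They numbered 1, 5, 11 and 21 and held 2.98%, 39.3%, 46.0% and 42.2% of all UMIs of the regulatory T cells. By class, 19 of them carried monocyte or macrophage markers, 13 B cell, 5 dendritic cell, 4 tumour, 2 neutrophil and 1 NK cell markers, with some cells in more than 1 class, and 31 of the 38 were not among the cells with the highest doublet scores. Without them 26, 17, 44 and 109 cells remained, and the main results are given both ways.

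The label was checked by holding back one side of the rule. Among CD8-negative T cells with both Ctla4 and Ikzf2, Foxp3 was found in 30.4%, 35.0%, 30.0% and 26.6% of cells, against 0.791%, 0.633%, 1.19% and 2.81% of those without both. Among cells with Foxp3, Ctla4 was found in 72.7%, 77.8%, 85.0% and 76.6%, against 9.85%, 12.8%, 14.7% and 23.3% of those without it. Ikzf2 was found in 72.7%, 88.9%, 85.0% and 85.1% of cells with Foxp3, against 12.7%, 14.7%, 18.2% and 24.8%. Each side of the rule was thus richer in the other in all 4 libraries. Cells with Foxp3 were also deeper, at medians of 2355, 3569, 2920.5 and 4354 UMIs against 1852, 1947, 1934 and 2170 in those without it. A deeper cell shows rare transcripts more easily, and the part of depth in these shares was not tested. All 3 are genes of the rule, so the shares describe the label and are no independent support of it. Tnfrsf4, a marker that the rule does not use, was found in 70.4%, 81.8%, 81.8% and 84.6% of regulatory T cells, against 8.17%, 13.4%, 10.1% and 20.6% of other CD8-negative T cells and at most 1.04% of cells with Cd79a. Foxp3 was found in at most 0.32% of cells with Epcam, an epithelial gene that these tumour cells carry, and in 0.58%, 0.73%, 1.03% and 2.46% of CD8-positive T cells.

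Most of these cells entered through Ctla4 and Ikzf2 and not through Foxp3. Of the 234, 147 had both Ctla4 and Ikzf2 but no Foxp3, 28 had Foxp3 alone and 59 met both routes. Foxp3 was counted once in 64 cells and more often in 23. Foxp3 (ENSMUSG00000039521, X:7573644-7595245, plus strand, GENCODE M21 on GRCm38) was detected in 40.7%, 40.9%, 36.4% and 36.2% of regulatory T cells. Just outside the rule lay 168 cells with Ctla4 and no Ikzf2 and 215 with Ikzf2 and no Ctla4, while 79 cells met every other condition but held Cd8a or Cd8b1. At the CD3 limit, 16 regulatory T cells had exactly 2 UMIs, and 5 cells failed with exactly 1. Cd4 itself was found in 7, 8, 23 and 50 regulatory T cells, 88 of 234 in all, and in 360 of the other CD8-negative T cells. Most cells of both classes therefore cannot be called CD4 T cells from their Cd4 RNA. Summed gamma-delta T cell markers of the other CD8-negative T cells stood at 281, 183, 307 and 256 CPM (the UMIs of a gene per 1000000 UMIs of the class in a library), against 73.5, 20.5, 41.2 and 15.6 CPM in regulatory T cells.

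Regulatory T cells took the largest share of CD8-negative T cells in the combination library. They made up 5.10% (3.39 to 7.34) in control, 6.55% (4.15 to 9.75) with anti-PD-1, 11.7% (8.94 to 14.96) with YKL-5-124 and 18.1% (15.4 to 21.2) in the combination. Relative to control, the share was 1.28-fold (0.696 to 2.34) with anti-PD-1, 2.29-fold (1.42 to 3.78) with YKL-5-124 and 3.55-fold (2.33 to 5.60) in the combination. The intervals of control and anti-PD-1 overlapped, and that of the combination lay above both. The combination had 2.77 times the share with anti-PD-1 (1.75 to 4.57) and 1.55 times that with YKL-5-124 (1.12 to 2.16). As a share of all cells kept, the values were 0.776%, 0.804%, 1.32% and 3.22%, beside CD8-negative T cells as a whole at 15.2%, 12.3%, 11.3% and 17.7%.

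The order YKL-5-124 below combination and both above control was kept in the subsets counted, at lower precision. Without mixed cells the ratios to control were 1.06 (0.542 to 2.04), 1.999 (1.20 to 3.38) and 3.36 (2.17 to 5.37). By Foxp3 alone, with 11, 9, 20 and 47 cells, they were 1.29, 2.05 and 3.15 (1.61 to 6.74), and the interval for YKL-5-124 of 0.935 to 4.73 included equal shares. With every cell thinned to 800 UMIs before the rule was applied, 14, 8, 20 and 36 cells were found, and the ratios were 0.834 (0.303 to 2.13), 1.57 (0.756 to 3.37) and 1.99 (1.05 to 4.001). At that depth the combination differed from YKL-5-124 alone by 1.27 times (0.714 to 2.31), a difference not detectable with these cell numbers. Free RNA in barcodes of 10 to 100 UMIs held Foxp3 at 2.66, 3.27, 6.43 and 9.64 CPM, from 9, 10, 23 and 35 UMIs. Foxp3 is a gene of the rule and this RNA is from the same libraries, so these values are no independent support of the shares.

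**Figure D1:**
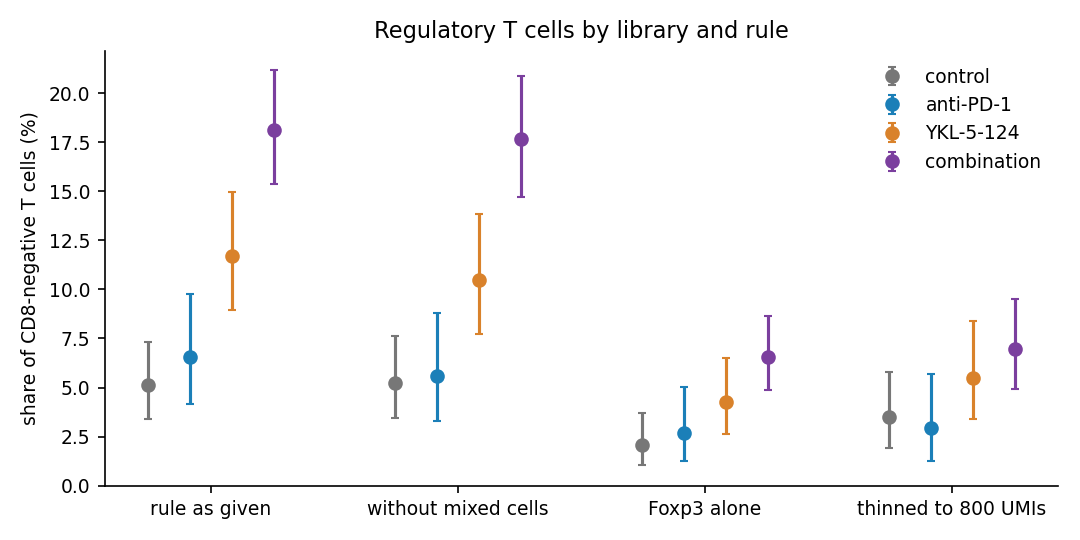
Share of CD8-negative T cells (y axis, percent) that were regulatory T cells in each library, under the rule as given, without mixed cells, by Foxp3 alone and with cells thinned to 800 UMIs. Points are single libraries and bars exact binomial 95% intervals; the combination stands at 18.1% under the rule as given and at 6.98% after thinning, above control at 5.10% and 3.50%.

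What the regulatory T cells express beyond the genes of the rule was asked by comparing them with the other CD8-negative T cells of the same libraries. UMIs were summed per library and class, and edgeR's quasi-likelihood test was fitted over 7032 genes with the library as a block, so that the 4 libraries served as replicates. Of these genes, 169 (2.4%) were higher and 141 (2.01%) lower in regulatory T cells at an adjusted p under 0.05, with the genes of the rule left out. Without mixed cells 306 (5.88%) of 5202 rose and 297 (5.71%) fell. Against those of the others with a UMI of Cd4, 13 (0.402%) of 3236 rose and 41 (1.27%) fell. The lists used below were drawn up with earlier results of these data known, so each count stands beside these background shares and is no independent support of a direction. The filter on low counts also kept genes that reached its level only in the class where they were high. Itgb8, Itgae, Havcr2, Ccr8, Neb, Ankrd55 and Slc5a3 entered only through regulatory T cells. Igfbp4, Cd209a, Ly6d, Tdrp, Trim13 and Bach2 entered only through the others. The direction of such genes, and list counts and medians that hold them, follow in part from this filter.

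The TNF receptor family members stood far apart between the classes. Tnfrsf9 (4-1BB), a co-stimulatory receptor induced on activated T cells, was at 462, 863, 432 and 285 CPM in regulatory T cells and at 17.2, 34.7, 18.8 and 46.7 CPM in the others. Each regulatory value was above each of the others, and the fitted log2 fold change was 3.89 ± 0.34 (SE, edgeR adjusted p = 0.000141). Tnfrsf4 (ENSMUSG00000029075, 4:156013843-156016612, plus strand) was at 1166, 1571, 1518 and 966 CPM against 81.3, 147, 92.4 and 264 CPM, a log2 fold change of 3.15 ± 0.31 (edgeR adjusted p = 0.000241). Tnfrsf18 (GITR), another co-stimulatory receptor, was at 714, 1037, 931 and 586 CPM against 180, 224, 240 and 253 CPM (log2 fold change 1.72 ± 0.17, edgeR adjusted p = 0.000246). For all 3 receptors the 4 regulatory values lay above the 4 others without overlap. The same held for Il2ra, at 84.1, 61.6, 149 and 99.1 CPM against 10.2, 6.73, 17.2 and 15.4 CPM, with a log2 fold change of 2.84 ± 0.28 (edgeR adjusted p = 0.000236).

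Of the 20 genes listed as the regulatory T cell signature, 17 could be tested, 13 rose and none fell, with a median log2 fold change of 1.69 against -0.05 over all genes. Beside the receptors above, Itgae (CD103), the integrin that holds T cells to epithelium, rose by 3.33 ± 0.35 on the log2 scale, and its CPM of 73.5, 82.2, 118 and 52.4 faced 8.60, 4.48, 8.99 and 6.16. Icos, a co-stimulatory receptor, rose by 1.31 and Izumo1r, the folate receptor FR4 of regulatory and memory-like CD4 T cells, by 1.57. Nrp1, a receptor of thymus-derived regulatory T cells, rose by 1.93, and Capg, an actin-capping protein, by 1.92. Without mixed cells the count was again 13 of 17. When only other cells with a UMI of Cd4 were compared, 360 cells in all, 7 of 16 passed and the median was 1.39. Icos and Izumo1r were among those that did not (edgeR adjusted p = 0.109 and 0.428).

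Genes listed under suppression, not all of which act in it directly, rose in 6 of 10 tested and fell in none, with a median of 1.299. Itgb8 and its partner Itgav, whose integrin activates latent TGF-beta, had log2 fold changes of 3.13 ± 0.58 and 2.44 ± 0.39 (edgeR adjusted p = 0.00949 and 0.00375). Itgav was listed and counted with the tissue and effector genes below. Itgb8 rests on 2, 2, 6 and 17 UMIs and entered the fit only through regulatory T cells, so its direction is no independent support. Lag3, an inhibitory receptor that binds MHC class II, was at 210, 318, 77.2 and 86.4 CPM against 15.6, 34.7, 20.4 and 20.02 CPM (log2 fold change 2.59 ± 0.31, edgeR adjusted p = 0.000625). Havcr2 (TIM-3) rose by 2.13, Nt5e (CD73), an enzyme that makes adenosine, by 1.11, and Pdcd1, which encodes PD-1, by 1.46 (edgeR adjusted p = 0.0455). Il10, the suppressive cytokine, was counted 3, 2, 1 and 15 times, and Tigit, an inhibitory receptor, 0, 0, 1 and 11 times, too few for a test. Pdcd1 lost its call without the control, anti-PD-1 or YKL-5-124 library (edgeR adjusted p = 0.172, 0.261 and 0.0518), Havcr2 without control or anti-PD-1 (0.0501 and 0.0767) and Itgav without anti-PD-1 (0.0593). Against other cells with Cd4, none of 7 passed, with a median of 1.07, and Lag3 had an edgeR adjusted p of 0.133.

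Tissue and effector genes of regulatory T cells rose in 12 of 20 tested and fell in none, with a median of 1.27. Areg, the epithelial growth factor, was listed and counted with the suppression genes above and is only described here. It was at 483, 329, 551 and 382 CPM against 64.9, 38.1, 20.4 and 94.99 CPM (log2 fold change 2.96 ± 0.36, edgeR adjusted p = 0.000719). Klrg1, a receptor of terminally differentiated effector cells, was at 84.1, 82.2, 288 and 99.1 CPM against 13.3, 30.3, 22.1 and 19.5 CPM (2.55 ± 0.35, edgeR adjusted p = 0.00137). Penk (ENSMUSG00000045573, 4:4133531-4138819, minus strand), the precursor of the opioid enkephalin, was at 158, 986, 97.8 and 133 CPM against 7.82, 33.6, 35.2 and 44.7 CPM (2.78 ± 0.53, edgeR adjusted p = 0.0102). Each of these 3 genes was higher in regulatory T cells in 4 of 4 libraries. Lgals1 (galectin-1), S100a6, Maf, Gata3, Batf and Rora also rose, by 1.71, 1.15, 1.48, 1.08, 0.99 and 0.98 on the log2 scale. Il1rl1 was at 0, 51.3, 72.0 and 90.6 CPM against 7.82, 5.60, 10.6 and 39.0 CPM and missed the threshold (1.65 ± 0.47, edgeR adjusted p = 0.0796), as did the chemokine receptor Ccr8 (2.08 ± 0.54, adjusted p = 0.0530). Without mixed cells both passed, with edgeR adjusted p of 0.0051 and 0.0086, and 15 of 19 genes of the list rose and 1 fell. Penk lost its call without the anti-PD-1 library (edgeR adjusted p = 0.0870). Against the other cells with Cd4, 1 of 15 passed, and Areg and Penk had log2 fold changes of 3.04 and 1.17 (edgeR adjusted p = 0.0906 and 0.476).

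**Figure D2:**
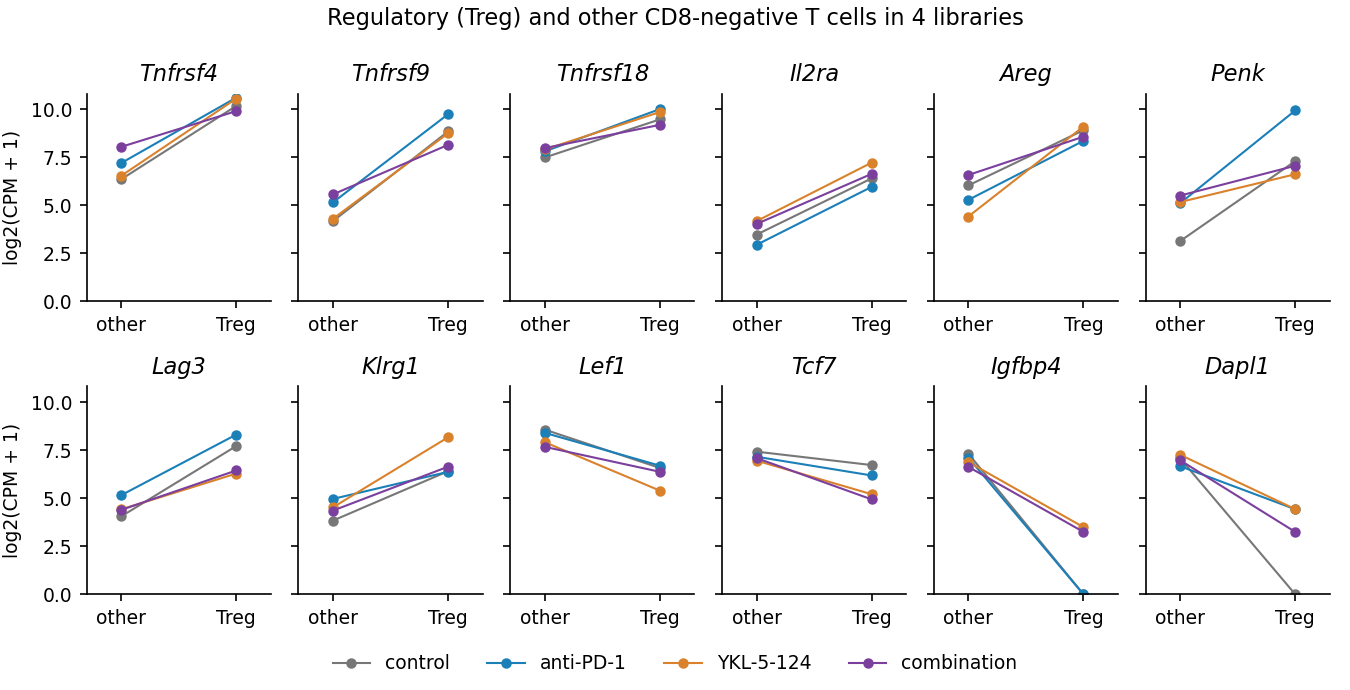
Level of 12 genes as log2(CPM + 1) in the other CD8-negative T cells and in regulatory T cells (Treg), 1 line per library. Lines climb for Tnfrsf4, Tnfrsf9, Tnfrsf18, Il2ra, Areg, Penk, Lag3 and Klrg1 and descend for Lef1, Tcf7, Igfbp4 and Dapl1 in 4 of 4 libraries.

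Genes of naive and recirculating T cells were lower. Of 14 listed and tested, 11 fell and none rose, with a median log2 fold change of -1.56. Lef1, a factor of naive T cells, was at 94.6, 103, 41.2 and 82.1 CPM against 381, 339, 241 and 204 CPM (-1.89 ± 0.21, edgeR adjusted p = 0.000464). Its relative Tcf7 was at 105, 71.9, 36.0 and 29.7 CPM against 171, 142, 123 and 136 CPM (-1.63 ± 0.28, edgeR adjusted p = 0.00653). Igfbp4, an insulin-like growth factor binding protein of naive T cells, fell by 4.07, Dapl1 fell by 3.58, and Bach2, a repressor of effector genes, fell by 2.60. Il7r, the receptor for the survival cytokine IL-7, fell by 0.80, and Ccr7, which guides cells to lymph nodes, fell by 0.95 (edgeR adjusted p = 0.0382). Ccr7 lost its call without control, anti-PD-1 or YKL-5-124 (edgeR adjusted p = 0.156, 0.169 and 0.106), Il7r without anti-PD-1 or the combination (0.102 and 0.0522) and Bach2 without control, anti-PD-1 or the combination (0.0751, 0.209 and 0.238). Without cells holding 3 or more UMIs from the G2/M list, Ccr7 was at -0.14 (edgeR adjusted p = 0.886). Against cells with Cd4, 6 of 12 fell, and Tcf7 and Il7r missed the threshold at log2 fold changes of -1.60 and -0.67 (edgeR adjusted p = 0.0599 and 0.270).

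Several receptors of NK-like T cells were among the lowest genes. Klra9, an NK receptor of the Ly49 family, had a log2 fold change of -4.14, Klrc1 (NKG2A) of -2.72 and Klrb1c (NK1.1) of -2.61. The Ly49 genes resemble each other closely, so reads of Klra9 may be divided with its relatives. Of 13 cytotoxic genes tested, 4 fell: the chemokine Ccl5, perforin (Prf1) and the receptors Klrk1 and Klrd1, with log2 fold changes of -2.42, -2.24, -1.84 and -1.81. Cd209a, a lectin of dendritic cells, Ly6d, a gene of B cell precursors and plasmacytoid cells, Tdrp and Trim13 completed the 10 lowest, at -3.93, -3.81, -2.69 and -2.67. Among the 15 highest, the remaining names were Neb, a giant muscle protein, at 3.90, Ankrd55 at 3.18, the kinase Matk at 2.34 and the inositol transporter Slc5a3 at 2.20. Neb, Cd209a, Ly6d, Tdrp and Slc5a3 had too few UMIs to be tested once mixed cells were left out. Without the anti-PD-1 library Klra9, Klrc1, Klrb1c, Ly6d, Tdrp, Trim13 and Slc5a3 missed the threshold, with edgeR adjusted p from 0.0524 to 0.150. Klra9, Klrc1, Klrb1c and Trim13 also did without the combination, Tdrp, Trim13 and Slc5a3 without control, and Tdrp and Slc5a3 without YKL-5-124. Bcl2, which protects resting lymphocytes, fell by 2.17.

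Other pathways moved less. Of 15 NF-kB pathway genes 2 rose, Traf1 and the inhibitor Nfkbia, by 0.89 and 0.61. Glycolysis genes rose in 3 of 16, Pkm, Gapdh and Ldha, by 0.61, 0.59 and 0.55, and in 7 of 14 without mixed cells. Of 16 interferon-stimulated genes Ifi27l2a rose by 1.25, of 13 immediate early genes and 9 heat shock genes none passed, and of 3 testable helper cytokines and factors none passed. Without mixed cells 3 of 12 immediate early genes, 2 of 9 heat shock genes and 3 of 13 interferon-stimulated genes fell, and 1 interferon-stimulated gene rose. Of 15 genes of IL-2 and STAT5 signalling, Il2ra and Pim1 rose and Bcl2 and Socs3 fell.

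A part of the mitosis genes rose in regulatory T cells. Of 49 tested genes of the G2/M list, 23 rose and none fell, with a median log2 fold change of 0.99, while 2 of 38 genes of the G1/S and S list rose. Mki67, the nuclear proliferation marker, rose by 1.304 ± 0.18 (edgeR adjusted p = 0.00137), the mitotic cyclin Ccnb1 by 1.67, the kinase Plk1 by 1.68 and the kinetochore protein Nuf2 by 2.08. Without mixed cells 26 of 35 rose, with a median of 1.79, and 9 of 27 genes of the G1/S and S list, with a median of 0.91. With mixed cells left out and cells thinned to 1000 UMIs, 4 of the 12 G2/M genes still testable passed, with a median of 0.67, beside 145 (5.6%) of all 2588 genes higher, and against cells with Cd4 the count was 2 of 34. Regulatory T cells were deeper than the cells they were compared with, and the part of depth in these counts was not tested beyond the thinned values.

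Counted cell by cell, more regulatory T cells than other cells held several transcripts of the G2/M list. The G2/M count was thinned to equal depth, but membership was set before thinning, by a rule that deeper cells meet more easily. The part of that choice in the difference was not tested. Without thinning, most cells of both classes held 3 or more UMIs of this list. These were 74.1%, 77.3%, 85.5% and 84.6% of regulatory T cells and 57.4%, 65.0%, 59.3% and 64.2% of the others. Reaching this limit is therefore not by itself a sign of division. Of cells thinned to 800 UMIs, 36.0%, 42.9%, 38.5% and 42.3% of regulatory T cells held 3 or more UMIs from the G2/M list, in 25, 21, 52 and 123 cells. In the other CD8-negative T cells the shares were 18.3%, 19.5%, 17.1% and 20.1%. The lowest regulatory share was above the highest other share. Means over libraries were 39.9% ± 3.25 and 18.8% ± 1.33 (SD, n = 4 libraries), a difference of 21.1 ± 2.46 percentage points. The members were higher in 4 of 4 libraries, and a two-sided exact sign-flip permutation test gave p = 0.125, the smallest value 4 libraries allow. Within a library the ratio was 1.96 (0.870 to 3.90) in control, 2.20 (0.959 to 4.47) with anti-PD-1, 2.25 (1.29 to 3.74) with YKL-5-124 and 2.10 (1.48 to 2.94) in the combination, and these intervals overlapped.

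The difference was as large without mixed cells, at 37.5%, 43.8%, 39.0% and 43.1% against 16.6%, 19.9%, 16.0% and 18.7% (mean difference 23.1 ± 1.53 percentage points, SD, n = 4 libraries). CD8-positive T cells without mixed cells stood at 16.98%, 13.8%, 19.6% and 19.7%. When regulatory T cells were chosen by Foxp3 alone the shares were 36.4%, 33.3%, 36.8% and 32.6% against 18.8%, 20.6%, 18.8% and 23.4%, and the combination ratio was 1.39 (0.760 to 2.37). From the G1/S and S list, 3 or more UMIs were held by 16.0%, 28.6%, 13.5% and 18.7% of regulatory T cells against 5.30%, 8.72%, 9.29% and 10.4%. Between libraries, the G2/M share of regulatory T cells under the rule as given spanned 36.0% to 42.9%, within the interval of each library.

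**Figure D3:**
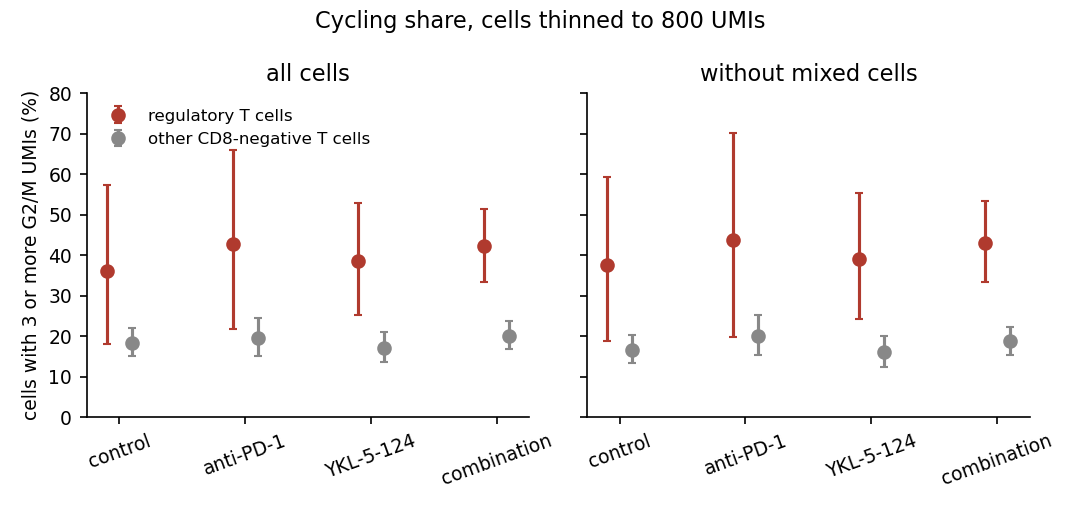
Share of cells (y axis, percent) with 3 or more UMIs from the G2/M list after thinning to 800 UMIs, in regulatory and other CD8-negative T cells of each library, with all cells (left) and without mixed cells (right). The classes were set before thinning. Bars are exact binomial 95% intervals; regulatory T cells sit between 36.0% and 42.9% with all cells, the others between 17.1% and 20.1%.

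How much of the T cell RNA of a gene lay in regulatory T cells was then counted directly. They were 3.09%, 3.61%, 7.23% and 11.2% of all T cells and held 3.74%, 5.14%, 7.70% and 15.4% of T cell UMIs. Of the G2/M list UMIs in T cells, 7.65%, 13.3%, 10.8% and 26.0% lay in them, and without mixed cells 15.9%, 8.59%, 8.81% and 25.2%. For Mki67 these shares were 10.2%, 14.8%, 19.2% and 29.0%, from 19, 18, 68 and 195 UMIs. Without mixed cells they were 35.2%, 11.6%, 17.5% and 32.7%, from 19, 5, 25 and 87 UMIs, with control the highest. Most mitotic RNA of T cells was therefore found outside regulatory T cells in each library. Of Tnfrsf4 UMIs 42.2%, 46.0%, 66.0% and 43.1% lay in regulatory T cells, of Tnfrsf9 24.0%, 50.9%, 64.1% and 51.9%, and of Areg 18.8%, 37.2%, 71.8% and 40.5%. YKL-5-124 had the highest of the 4 values for each of these 3 genes. Of Gzmb, which encodes the granule protease granzyme B, 0.27%, 8.50%, 19.1% and 10.7% lay in them, from 2, 25, 87 and 62 UMIs. With YKL-5-124, 64 of the 87 lay in 1 cell, and the interval treats them as independent.

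Penk and the chemokine Ccl1 were concentrated in few cells. Penk UMIs in regulatory T cells numbered 15, 96, 19 and 94, or 36.6%, 55.8%, 13.5% and 43.3% of all Penk UMIs in T cells. They came from 4, 3, 5 and 15 cells, and with anti-PD-1 a single cell held 58 of the 96. Ccl1, a ligand of CCR8, had 0, 15, 0 and 223 UMIs in regulatory T cells out of 34, 75, 152 and 424 in T cells, and 1 cell of the combination held 214 of the 223. In the YKL-5-124 library, where T cells held 152 UMIs of Ccl1, the share in regulatory T cells was 0% (0 to 2.40). Socs1, a feedback inhibitor of cytokine signals, was not concentrated in them, with 7.14%, 1.15%, 3.19% and 9.62% of its T cell UMIs.

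**Figure D4:**
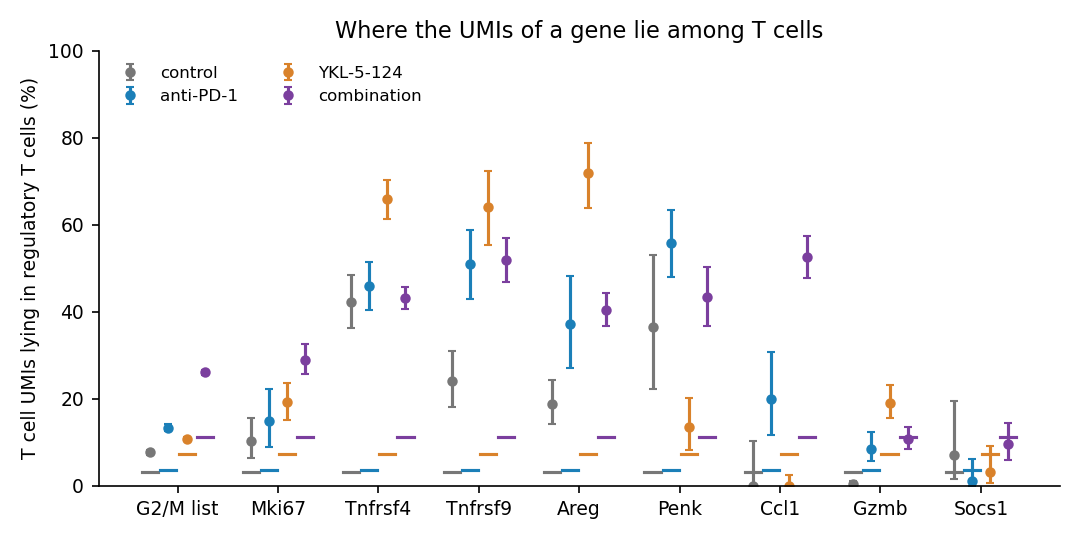
Share of the T cell UMIs of a gene or list (y axis, percent) that lay in regulatory T cells, by library, with exact binomial 95% intervals; short horizontal lines mark the share of T cells that were regulatory. Tnfrsf4 lies at 42.2% to 66.0%, far above these lines at 3.09% to 11.2%, while Socs1 lies at 1.15% to 9.62%.

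Libraries were then compared within regulatory T cells. Ratios within regulatory T cells were taken on the log2(CPM + 50) scale for 6103 genes with at least 20 UMIs in these cells, and a gene passed at 2-fold, a limit on size with no test behind it. Against control, 210 genes (3.44%) passed upward and 74 (1.21%) downward with anti-PD-1, 194 (3.18%) and 49 (0.803%) with YKL-5-124, and 181 (2.97%) and 26 (0.426%) in the combination. All 3 comparisons share the 27 control cells. Of 19 signature genes none passed with anti-PD-1 or in the combination, and with YKL-5-124 only Izumo1r did, downward, at 123 CPM against 336. The medians of the list were 0.10, 0.25 and -0.26, and counts this low are near the background shares. Its summed level was 5831, 7178, 6658 and 4621 CPM, and 5924, 9719, 8776 and 6221 CPM without mixed cells. Without mixed cells 177 (4.13%) and 162 (3.78%), 160 (3.73%) and 68 (1.59%), and 90 (2.1%) and 16 (0.373%) of 4285 genes passed. Of 18 signature genes, none then passed upward in the combination, 1 did in the YKL-5-124 library and 2 did in the anti-PD-1 library. With cells weighted equally, 2 of 19 passed upward and 1 downward with anti-PD-1, 1 and 3 with YKL-5-124, and 2 and 0 in the combination. Over all 6103 genes the counts under this setting were 324 (5.31%) and 240 (3.93%), 285 (4.67%) and 123 (2.02%), and 185 (3.03%) and 75 (1.23%).

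Ctla4, used by the rule and given here as a description, was at 483, 513, 1003 and 603 CPM in regulatory T cells, 2.08-fold (1.499 to 2.93) with YKL-5-124 relative to control. Without mixed cells that ratio was 3.12 (2.22 to 4.46). Klrg1 was 3.43-fold (1.63 to 8.33) with YKL-5-124, from 56 UMIs in 17 cells against 8 in 5, and 1.18-fold (0.567 to 2.84) in the combination. S100a6, a calcium-binding protein of effector T cells, was at 1229, 955, 2856 and 1752 CPM, 2.32-fold with YKL-5-124 (1.90 to 2.86). Il1rl1 was found in 0 of 27, 1 of 22, 10 of 55 and 36 of 130 regulatory T cells, with 0, 5, 14 and 64 UMIs. Tgfb1, the suppressive cytokine, had 2, 18, 33 and 86 UMIs or 21.01, 185, 170 and 122 CPM, with ratios to control of 8.80 (2.11 to 78.2), 8.08 (2.07 to 69.5) and 5.80 (1.56 to 48.6). Each treated library was above control for Tgfb1, whose control value rests on 2 UMIs.

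Pdcd1 was lower in each treated library than in control. It was at 357, 195, 108 and 112 CPM, from 34, 19, 21 and 79 UMIs, with ratios to control of 0.546 (0.294 to 0.985), 0.302 (0.167 to 0.536) and 0.313 (0.207 to 0.483). Without mixed cells these were 0.828 (0.440 to 1.51), 0.492 and 0.492, and the anti-PD-1 interval included 1. Lag3 was at 0.367 of control (0.175 to 0.755) with YKL-5-124, 0.411 (0.245 to 0.719) in the combination and 1.51 (0.836 to 2.80) with anti-PD-1. Tnfrsf9 was 1.87-fold (1.28 to 2.75) with anti-PD-1 and 0.616 (0.442 to 0.874) in the combination. Without mixed cells Tnfrsf9 was 2.91-fold (1.98 to 4.32) with anti-PD-1. In the combination it was then at 353 CPM against 466 in control, a smaller gap than the 285 against 462 CPM with all cells. Lag3 then had 20, 31, 10 and 53 UMIs, out of 92339, 59062, 104940 and 408285 UMIs of regulatory T cells. Penk was 6.26-fold (3.61 to 11.6) with anti-PD-1, from 3 cells, an interval that treats UMIs of 1 cell as independent.

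Several cytotoxic transcripts were highest in the regulatory T cells of control. Nkg7, a protein of cytotoxic granules, was at 1671, 934, 242 and 422 CPM, from 159 UMIs in 13 of 27 cells, 91 in 10 of 22, 47 in 15 of 55 and 298 in 39 of 130. The ratios to control were 0.559 (0.427 to 0.728), 0.145 (0.102 to 0.202) and 0.253 (0.208 to 0.308). In the other CD8-negative T cells Nkg7 was at 539, 835, 671 and 588 CPM, with control the lowest. Without mixed cells the YKL-5-124 ratio was 0.160 (0.104 to 0.240) and that of the combination 0.368 (0.301 to 0.452), but with cells chosen by Foxp3 alone the log2 ratio was -0.58 with YKL-5-124 and 0.20 in the combination. Ctsw, a protease of cytotoxic cells, was at 252, 144, 103 and 51.0 CPM, and Serpina3g, an inhibitor of cathepsins, at 294, 175, 87.5 and 46.7 CPM, both lowest in the combination. By Foxp3 alone, Ctsw was instead above control in the combination. The summed level of the 18 listed cytotoxic genes was 3950, 3666, 1986 and 1981 CPM, and 4050, 3149, 2601 and 3018 CPM without mixed cells. Of 13 measured, 4 passed 2-fold upward and 3 downward with anti-PD-1, 2 and 3 with YKL-5-124, and 2 and 4 in the combination. Over all genes the shares were 3.44% and 1.21%, 3.18% and 0.803%, and 2.97% and 0.426%. Gzmb went the other way, with 2, 25, 87 and 62 UMIs, but 64 of the 87 with YKL-5-124 lay in 1 cell.

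With anti-PD-1 the largest ratios were small in UMIs. Cd74, the chaperone of MHC class II, led with 220 UMIs against 37, of which 175 lay in 1 cell, followed by Tgfb1, Rp9, Tmed2 and Ndfip1, an adaptor that limits T cell activation, with log2 ratios of 2.40, 1.73, 1.64, 1.58 and 1.35. The lowest were Ccl5, a chemokine of effector T cells, at 308 CPM against 1219 (log2 ratio -1.83), Gramd3 (-1.78), Rgcc (-1.38), Arid5a (-1.19) and Macf1 (-1.15). Without mixed cells Ndfip1 stayed among the highest 5, with Bmyc, Cd81, Ccr7 and Tnfrsf9, and Gramd3 among the lowest, with Tagln2, Itga4, Ptpn6 and Sarnp. Ccr7 then stood at 660 CPM against 184, 3.59-fold (1.98 to 6.76), from 6 and 7 cells.

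With YKL-5-124 the highest ratios belonged to genes of other cell classes. Scgb1a1, the secretoglobin of club cells in the airway, had 3889 UMIs, of which 3878 lay in 1 cell. The neutrophil genes S100a8 and S100a9 had 189 and 115 UMIs against 0 in control, at least 30.9-fold and 18.8-fold higher with 3 counts as the floor for control, and H2-Ab1, an MHC class II chain, and Ifitm3 followed. Summed neutrophil markers in regulatory T cells stood at 0, 10.3, 1863 and 15.6 CPM, and monocyte or macrophage markers at 1607, 2177, 8835 and 2783 CPM. In the other CD8-negative T cells these sums were 238, 70.6, 5116 and 140 CPM, and 2564, 3496, 4473 and 6035 CPM. Without mixed cells the neutrophil sum with YKL-5-124 was 257 CPM in regulatory T cells and 214 CPM in the others. The monocyte or macrophage sums of regulatory T cells were then 347, 254, 505 and 605 CPM with 4 to 5 of 11 markers found. With YKL-5-124 the highest genes became Gzmb, Lmna, Gm12840, Lgmn and Ripk3, at log2 ratios of 3.47, 2.39, 2.09, 1.91 and 1.71. Of the 78 Gzmb UMIs, 64 lay in 1 cell. The lowest genes were Nkg7 (-2.56), Rgcc (-1.67), the chemokine receptor Cxcr6 (-1.54), Bcl2a1d (-1.44) and Serpinb6b (-1.40), of which Nkg7, Rgcc and Bcl2a1d were among the lowest 5 without mixed cells too, beside Cdca3 and Nol7.

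In the combination, MHC class II genes and Ccl17 stood highest. H2-Ab1 had 904 UMIs against 3 in control, H2-Aa 717 against 2, H2-Eb1 a log2 ratio of 3.59 and Cd74 2825 UMIs against 37. Ccl17, a chemokine that dendritic cells make, had 488 UMIs in 13 cells against 0, with an interval that began at 17.8-fold, and 203 of them lay in 1 cell. Dendritic cell markers summed to 10.5, 10.3, 0 and 365 CPM, and without mixed cells to 10.8, 0, 0 and 53.9 CPM. Without mixed cells H2-Aa still held 257 UMIs, but in 6 of 109 cells, with 107 and 106 of them in 2 cells, and Cd74 866 UMIs with 309 and 260 in 2 cells. The chemokine Ccl4 was then also among the highest, with 163 of 218 UMIs in 1 cell. Below control lay Nkg7, Serpina3g, Ctsw, the heat shock gene Hspa1a and the cystatin Cst7, with log2 ratios of -1.87, -1.83, -1.58, -1.54 and -1.48, and without mixed cells Serpina3g, Ly6c2, Nkg7, Ctsw and Bcl2.

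Set directly against the single agents, the combination had 62 genes (1.02%) higher and 27 (0.442%) lower than anti-PD-1, and 87 (1.43%) higher and 49 (0.803%) lower than YKL-5-124, all within regulatory T cells. Against anti-PD-1, Gzma, Penk, Il1r2, Bmyc and Cst7 were the lowest, with log2 ratios of -3.34, -2.50, -1.82, -1.68 and -1.57. Gzma rests on 109 UMIs in 2 anti-PD-1 cells against 46 in 14 cells of the combination. Without mixed cells it turned, at 0 against 43 UMIs, or 2.07-fold higher in the combination with 3 counts in place of the 0. Without mixed cells Penk, Bmyc and Il1r2, a decoy receptor for IL-1 found on activated regulatory T cells, remained among the lowest 5, and 161 (3.76%) genes passed upward and 51 (1.19%) downward. Against YKL-5-124 without mixed cells, the class II genes H2-Aa, H2-Eb1 and H2-Ab1 were highest and Gzmb lowest, and 44 (1.03%) and 19 (0.443%) genes passed. With cells weighted equally, 147 genes were higher and 119 lower than anti-PD-1, and 25 higher and 42 lower than YKL-5-124. Without shared barcodes the counts were 79 and 64 against anti-PD-1 and 26 and 28 against YKL-5-124, so the balance against YKL-5-124 turned under both settings. Cdk7, which encodes the target of YKL-5-124, had 4, 3, 6 and 10 UMIs in regulatory T cells, or 42.0, 30.8, 30.9 and 14.2 CPM, and the intervals of its ratios to control included 1.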

How the data were processed

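Each deposited matrix gives whole-number UMI counts of genes by barcode, which the authors did not normalize. The submitters' processing notes list bcl2fastq and Cell Ranger, and the software version per the file headers was 3.0.0. The notes name hg19, but all 31053 gene IDs are mouse Ensembl IDs, and the sources used here do not name the build behind the counts. Gene locations are from GENCODE M21 (GRCm38).

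UMIs were summed over regulatory T cells and over other CD8-negative T cells of each library and tested with edgeR 4.0.16 (TMM, filterByExpr, quasi-likelihood F test, library as block, Benjamini-Hochberg adjustment, SE from the log2 fold change and F). DESeq2 1.42.0 was an alternative. Ratios within regulatory T cells between libraries have exact conditional binomial intervals, levels exact Poisson intervals and shares exact binomial ones. Thinning drew 800 or 1000 UMIs per cell and left shallower cells out. The automatic Scrublet threshold (Scanpy 1.11.5) marked under 0.5% of cells, so no doublet was removed in the main results, and an alternative left out the top-scoring cells, 0.8% for each 1000 cells of a library.

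Named genes are the 15 highest and 10 lowest fold changes past the threshold with 1 sign in 4 libraries, the 5 highest and 5 lowest ratios between libraries with UMIs in at least 8 cells, and a fixed set of regulatory T cell genes, of which 1 is not reported here. Genes of the rule and mitochondrial, ribosomal protein, Y-linked, antigen receptor and haemoglobin genes and Xist were left out. Penk, Ccl1, Socs1, Gzmb, S100a6, Tgfb1 and list members beyond this rule were chosen after their values were seen. The cells, lists and tests were chosen with earlier results of these data known. Both statistical steps were tested on simulated data. Python 3.11.15 and R 4.3.3 were used.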

Additional observations from a re-analysis of the deposited data

How the results depend on the processing

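No paired analysis was possible because each group has 1 library and the library numbers pair no animals; the fit of regulatory against other T cells has the library as a block, and without it 261 genes rose. Each treated group rests on 1 library and 22 to 130 cells, so no value separates treatment from library, and depth limits genes with under 20 UMIs. In the fit, where 169 genes rose and 141 fell, the higher count was 13 against other cells with Cd4, 107 with cells chosen by Foxp3 alone, 98 without cells holding 3 or more UMIs from the G2/M list (called G2/M cells here) and 306 without mixed cells. With a library left out it ran from 53 (without anti-PD-1) to 175, and was 87 without control. The lower count was 326 with all genes counted at least once, 41 against cells with Cd4, 297 without mixed cells and 249 without shared barcodes, and 67 (without anti-PD-1) to 165 with a library left out. Of the comparisons of named genes in this fit with an alternative, 414 stayed on their side of the threshold, 47 lost it, 11 gained it and 0 reversed. The combination to control ratio of shares was 1.99 after thinning. The ratio of G2/M shares to other cells was 6.55 in control and 3.59 in the combination at 5 or more UMIs, and in the combination 1.42 at 2 or more, 1.32 without thinning and 1.39 by Foxp3 alone.

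Counts of genes past the limit within regulatory T cells moved with nearly every setting. In the order anti-PD-1 higher and lower, YKL-5-124 higher and lower, combination higher and lower, they were 896, 649, 864, 479, 1009 and 165 with a pseudocount of 10 CPM, and 815, 495, 770, 409, 806 and 212 at 1.5-fold. Without G2/M cells, which left 7, 5, 8 and 20 cells, they were 70, 114, 52, 132, 85 and 61, and by Foxp3 alone 444, 259, 442, 137, 456 and 102. With 50 UMIs per gene, anti-PD-1 had 134 higher and 46 lower and YKL-5-124 had 32 lower. With cells weighted equally, anti-PD-1 had 324 higher and 240 lower, YKL-5-124 123 lower and the combination 75 lower. Without mixed cells, anti-PD-1 had 162 lower and the combination 90 higher and 16 lower, and without shared barcodes the combination had 117 higher. Single genes reversed in 9 cases, as log2 ratios to control. With anti-PD-1, Ccl5 was at 0.22 and Cd74 at -0.27 without G2/M cells, and at 0.51 and -0.0397 by Foxp3 alone. With YKL-5-124, Serpinb6b was at 1.70 and 0.51 under the same settings. In the combination by Foxp3 alone, Ctsw was at 0.31, Ly6c2 at 1.87 and Nkg7 at 0.20. The cause of these changes was not tested. Settings on mixed cells and shared barcodes were chosen after seeing the data.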
